A study of Mus musculus with 10 samples.

Results

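The response of peritoneal cavity macrophages to interleukin-4 (IL-4) was measured by RNA sequencing in wild-type mice. It was read from 5 of the 10 libraries of the series, 2 labelled wild-type basal and 3 labelled wild-type IL-4, chosen by their labels alone. All 10 libraries came from C57BL/6 mice. The mice called wild type carried floxed alleles of the gene under study and no Cre according to the treatment protocol, while the growth protocol calls them WT only. The other 5 libraries came from mice with the same floxed alleles and LysM-Cre, called knockout here, in which Cre is driven from the lysozyme M locus of myeloid cells, so that cells with little activity of that locus can keep the gene. IL-4 was given intraperitoneally as a complex with an anti-IL-4 antibody and the control injection was saline. The cells were washed out 36 hours later with 5 ml of PBS and sorted after staining for CD64, ICAM-2 and CD115. The labels do not say whether replicates came from separate mice, so the p-values measure only the spread between these libraries, which may be technical.

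IL-4 is a type 2 cytokine made in worm infection and allergy. It binds the receptor chain encoded by Il4ra, and the kinases bound to the receptor phosphorylate the transcription factor STAT6, which moves to the nucleus and switches on the genes of alternative activation, among them those for arginase and several secreted lectins. In the serous cavities IL-4 is also known to drive the resident macrophages into division. The resting peritoneum holds large macrophages, which depend on the factor GATA6 and carry ICAM-2, and smaller macrophages and dendritic cells derived from monocytes, which are rich in MHC class II.

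Of 22165 gene identifiers in the table, 11614 had enough reads to be tested. The total per wild-type library ran from 9775867 to 15024073 counted reads. Levels below are CPM, that is counts relative to the total of the library, scaled between libraries by TMM factors, and are given in replicate order. Folds and log2 differences are IL-4 against basal. They come from edgeR's quasi-likelihood test with Benjamini-Hochberg adjustment over all 11614 genes, and a gene passed at an adjusted p under 0.05. The genes of the sort markers were read as a check of the label. Csf1r, which encodes CD115, gave 289 and 248 CPM at rest and 337, 287 and 279 after IL-4, a log2 difference of 0.16 ± 0.21 that did not pass (adjusted p = 0.717). The other sort markers, described further below, were lower after IL-4: CD64 (Fcgr1) by a log2 difference of -1.78 and ICAM-2 (Icam2) by -1.27, the latter not in every fit without 1 library. Adgre1, which encodes the macrophage protein F4/80, gave 709 and 685 CPM and then 803, 616 and 681. In bulk samples such as these, fewer cells of a type and less RNA per cell cannot be told apart.

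After IL-4, 379 genes were higher and 325 were lower, which is 3.26% and 2.8% of the genes tested and 6.06% in all. The libraries of the 2 groups did not overlap for 703 of these 704 genes, against 40.2% of all genes tested. The difference was at least 2-fold for 322 of the higher and 257 of the lower genes, at least 4-fold for 118 and 43, and at least 8-fold for 58 and 15. With the 17 genes that had no reads in 1 group put at their lower bound (3 counts over that group), 56 of the higher genes reached 8-fold and the other counts stayed the same. The first principal component of the 5 wild-type libraries held 48.7% of the variance and separated the treatments. The next component held 20.9% and separated the 2 basal libraries from each other. Of 7432 genes at or above 10 CPM on average, 454 differed by over 2-fold between the 2 basal libraries, against 167 to 235 for the pairs of IL-4 libraries. The counts depended on single libraries. Without basal replicate 1 there were 169 higher and 244 lower genes, and without basal replicate 2 there were 189 and 113. Leaving out IL-4 replicate 1, 2 or 3 gave 230, 201 and 227 higher and 169, 139 and 151 lower genes. With library totals in place of TMM scaling, 481 genes were higher and 256 lower, so that 65.3% of the calls were rises against 53.8%. A set of 137 genes, 86 higher and 51 lower, passed in all 5 fits that left out 1 wild-type library. A gene that passed and has no library, or number of fits, named beside it below is 1 of these 137.

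**Figure D1:**
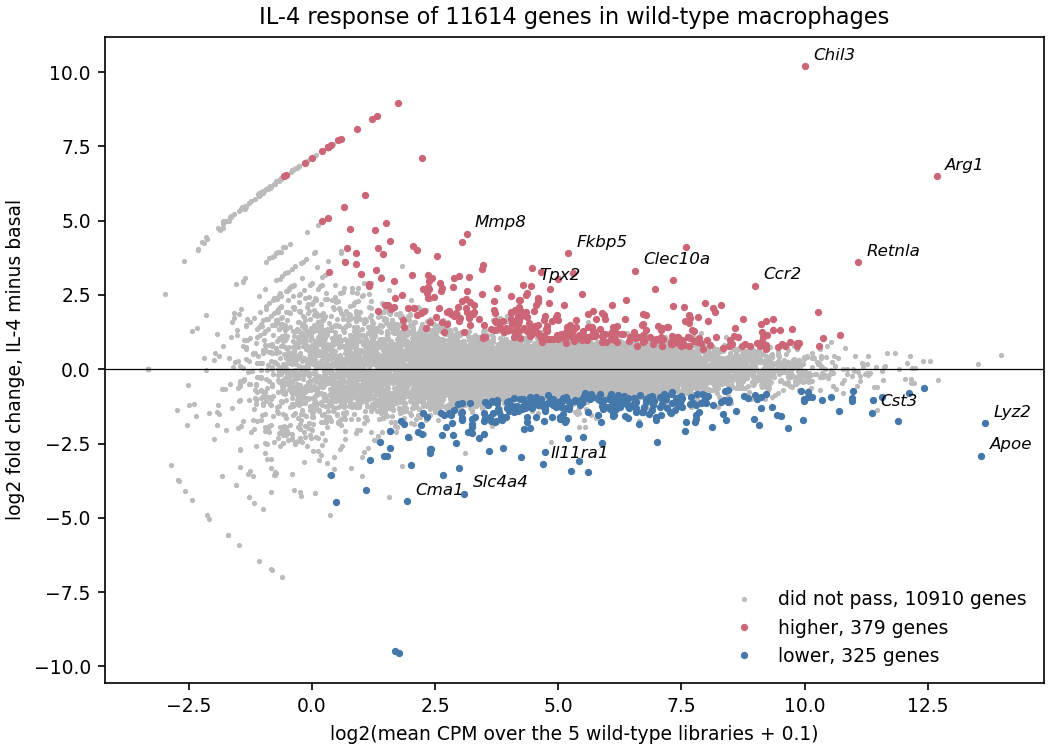
Each point is 1 of the 11614 genes tested, by its log2 mean level over the 5 wild-type libraries (x axis, log2 CPM with 0.1 added) and its log2 difference after IL-4 (y axis). Red points are the 379 genes that were higher and blue points the 325 that were lower at an adjusted p under 0.05; Chil3 and Arg1 stand above the rest of the well expressed genes.

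Genes of alternative activation led the response: Chil3 had the largest fitted rise of the 704 genes and Arg1 the largest gain in CPM. Chil3 encodes the secreted chitinase-like lectin Ym1. It went from 1.51 and 1.37 CPM in the basal libraries to 2003, 1498 and 1628 after IL-4. The rise was 1179.6-fold, with a log2 difference of 10.204 ± 0.37 and an adjusted p of 1.51e-10. Arg1, the arginase that splits arginine into ornithine and urea, went from 67.2 and 171 CPM to 10708, 12319 and 9527. All 3 treated libraries therefore lay far above both controls, and the fitted rise was 91.2-fold (log2 6.51 ± 0.39, adjusted p = 3.97e-07). The basal libraries differed from each other for this gene, and without basal replicate 2 the log2 rise was 7.33. Retnla encodes the secreted protein RELM-alpha. It read 272 and 295 CPM at rest and 3631, 3947 and 2740.5 after IL-4, a rise of 12.1-fold (log2 3.601 ± 0.25, adjusted p = 9.69e-07). In GRCm38 (mm10), the build the submitters' processing notes name, these genes lie at chr3:106147554-106167564, chr10:24915221-24927484 and chr16:48842551-48844461. Chil3 has near-identical neighbours, such as Chil4, and reads could be split between them.

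C-type lectins of the cell surface were among the genes that changed, and not all in 1 direction. Clec10a and Mgl2 are the paired genes of the galactose-binding macrophage lectins. Clec10a went from 14.9 and 14.6 CPM to 162, 134 and 146, which was 9.98-fold with an adjusted p of 1.10e-05. Mgl2 went from 11.3 and 24.2 CPM to 294, 318 and 318, a rise of 17.4-fold (adjusted p = 3.86e-05), and its log2 rise of 4.12 became 4.77 without basal replicate 2. Mrc1, the mannose receptor CD206, read 15.4 and 42.3 CPM at rest and 190.1, 216 and 159 after IL-4. Its basal libraries were far apart, but both lay under all 3 treated ones, and the log2 rise was 2.704 ± 0.42 (adjusted p = 0.00251; 3.61 without basal replicate 2). Clec5a, a C-type lectin of myeloid cells that is not in the list of alternative activation, fell instead, from 133 and 48.3 to 6.94, 16.6 and 8.34 CPM (log2 -3.08 ± 0.56, adjusted p = 0.0075). Without basal replicate 1 its log2 difference was -2.17 (adjusted p = 0.0687). Ear2, a ribonuclease of the eosinophil-associated family with close paralogs, went from 5.57 and 7.37 to 69.2, 43.9 and 70.4 CPM. Rnase2a, of the same family, had no read in either basal library and 4.65, 1.93 and 4.63 CPM after IL-4, at least 26.2-fold higher with 3 counts over the basal group as the floor.

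Of 43 genes listed for alternative activation, 38 were tested, 15 were higher and 2 lower. That is 39.5% of the tested members higher, against 3.26% of all genes, and the median log2 difference of the list was 0.86 against 0.00 for all genes. The list was drawn up from the literature on IL-4 and with earlier results of these data known. Of the 17 calls, 10 held in all 5 fits without 1 library, and 11 to 13 members were higher in those fits. Ccl24, an eosinophil attractant that is usually placed among the genes IL-4 induces, was lower instead. It read 211 and 157 CPM at rest and 81.3, 81.98 and 78.4 after IL-4 (log2 -1.19 ± 0.22, adjusted p = 0.00472), and did not pass without basal replicate 1 (adjusted p = 0.0598).

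**Figure D2:**
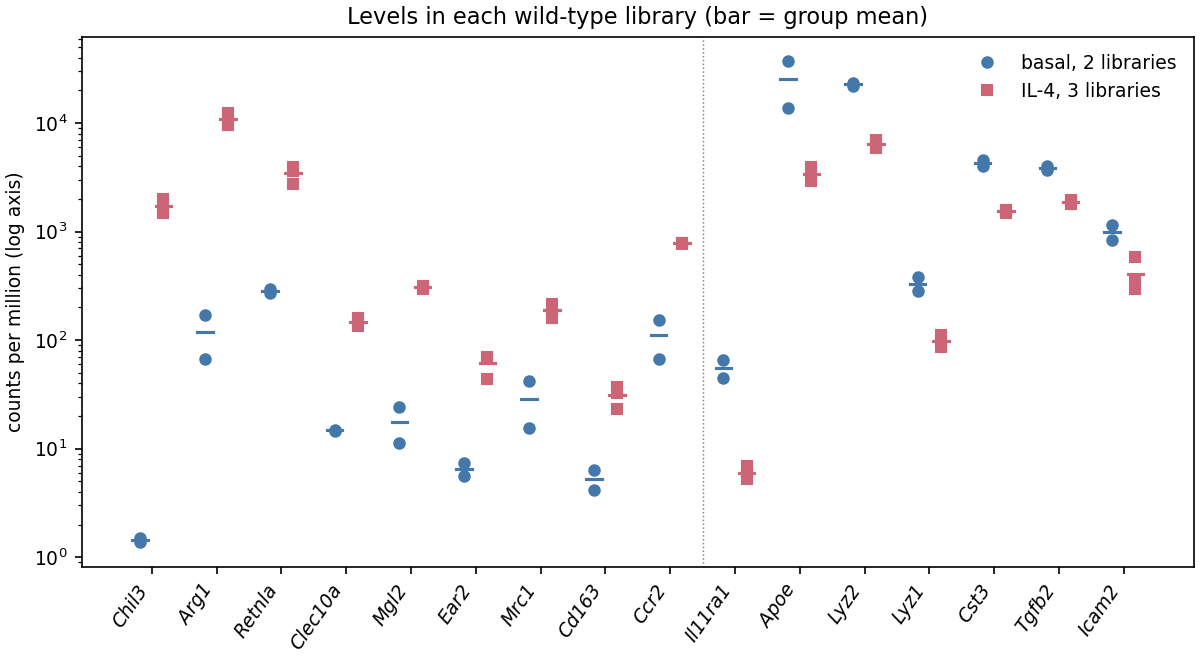
Levels of 16 genes in CPM on a log axis, 1 point for each wild-type library (blue circles, 2 basal; red squares, 3 IL-4) with a bar at the group mean. To the left of the dotted line are genes that were higher and to the right genes that were lower; for each of them the 2 groups do not overlap.

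The promoter of Retnla is shown because it holds the STAT6 word in a gene of this response. The word searched was TTC, any 4 bases, then GAA, which reads the same on both strands, in RefSeq promoters of 300 bases (250 before to 50 after the start, GRCm38.p6). Such a promoter was matched for 9200 of the 11614 genes. In the 140 bases at chr16:48842399-48842538 on the plus strand the word stands in capitals.
Retnla: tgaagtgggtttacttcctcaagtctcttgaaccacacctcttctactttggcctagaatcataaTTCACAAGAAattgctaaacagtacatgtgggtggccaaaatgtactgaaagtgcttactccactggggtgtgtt
The word was in the promoters of 20 of the 311 higher genes with a promoter (6.43%), of 6.59% of all tested genes and of 6.95% of all promoters in the table. Among the genes higher by at least 4-fold it was in 5.16%. The share among the genes that rose thus lay at the background. Of the 25 genes listed for alternative activation with a promoter, 4 held the word. A match describes letters in this window and not a bound site.

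The receptor and its signalling genes did not pass. Of 17 genes listed for the IL-4 receptor and STAT6 pathway none passed in either direction, none had an unadjusted p under 0.05, and DESeq2 also called none. Il4ra read 28.05 and 42.5 CPM at rest and 50.1, 41.7 and 40.1 after IL-4. Stat6 read 158 and 152 CPM and then 182, 244 and 230.3, with no overlap, and a log2 difference of 0.49 ± 0.23 (adjusted p = 0.24). Irs2, an adaptor that links the receptor to the kinase PI3K, read 13.03 and 12.8 CPM at rest and 28.6, 22.5 and 23.6 after IL-4 (log2 0.94 ± 0.45, adjusted p = 0.25).

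Around arginase, 3 of 21 tested genes of arginine, creatine and polyamine metabolism were higher (14.3% against 3.26% of all genes). None was lower, and the median log2 difference was 0.09. Besides Arg1 these were Srm, the spermidine synthase, and Slc7a1, a carrier for cationic amino acids such as arginine. Srm read 21.7 and 16.96 CPM at rest and 50.7, 33.9 and 53.8 after IL-4 (log2 1.25 ± 0.30, adjusted p = 0.0206), and passed in 1 of the 5 fits without 1 library. Slc7a1 read 17.6 and 17.3 CPM at rest and 36.5, 33.2 and 37.4 after IL-4 (log2 1.03 ± 0.27, adjusted p = 0.0347) and passed in none of those fits, with adjusted p of 0.069 to 0.167. The summed level of the list went from 1348 and 1611 CPM to 12159, 13540.0 and 10906 CPM, and Arg1 made up most of it after IL-4.

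Some genes of late cell division were higher. Of 53 tested genes of G2 phase and mitosis, 12 were higher and none lower (22.6% against 3.26% of all genes), 51 had a positive log2 difference, and the median was 1.24. Tpx2, a factor that builds the mitotic spindle, went from 5.76 and 3.68 CPM to 37.3, 32.8 and 28.5. The rise was 6.97-fold (log2 2.801 ± 0.42, adjusted p = 0.00126), with no overlap of the groups, as for 703 of the 704 genes that passed. Cdca3, which helps mitotic kinases to be activated, went from 1.42 and 1.46 to 8.88, 9.37 and 8.96 CPM (log2 2.65 ± 0.41, adjusted p = 0.00146). Ccnb2, a mitotic cyclin, went from 2.64 and 3.597 to 17.7, 11.1 and 13.6 CPM (log2 2.17 ± 0.34), and Cenpe, a motor protein of the kinetochore, from 23.5 and 24.6 to 84.9, 96.1 and 75.05 CPM (log2 1.83 ± 0.30). These 4 held in all 5 fits without 1 library. The other 8, Ube2c, Kif23, Cenpf, Kif4, Ccnb1, Prc1, Hmmr and Mki67, did not: the count of higher members was 7 without basal replicate 1, 4 without basal replicate 2, and 10, 7 and 6 without IL-4 replicates 1, 2 and 3. Without a filter on low counts it was 20. Of 42 tested genes of S phase and DNA replication, none passed in either direction with edgeR, 9 had an unadjusted p under 0.05, DESeq2 called 1 higher, and the median log2 difference was 0.03. Tyms, the thymidylate synthase, was the listed value nearest the threshold, with 5.57 and 7.54 CPM at rest and 14.5, 12.7 and 11.5 after IL-4 (log2 0.97 ± 0.29, adjusted p = 0.0628). Among 23 genes of G1 phase, Cdk6, Cdkn2c and E2f2 were higher, and none of the 3 passed in all 5 fits without 1 library. Cdkn2c, an inhibitor of cyclin D kinases, lost the call without basal replicate 1 (adjusted p = 0.0643), and E2f2, a factor that drives S phase genes, passed in 1 fit (adjusted p up to 0.118, without basal replicate 2). Cdk6, a kinase that pairs with cyclin D, read 84.04 and 59.6 CPM at rest and 181, 188 and 165 after IL-4 (log2 1.31 ± 0.23; adjusted p = 0.00372, and 0.0601 without basal replicate 2).

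The promoters of 3 of the mitotic genes are shown for the pair of words that marks genes of late division, CCAAT and the cell cycle homology word TTTGAA. Both were searched on both strands, and neither contains the other. Capitals mark each match, ATTGG and TTCAAA being the same words on the other strand.
Ccnb2: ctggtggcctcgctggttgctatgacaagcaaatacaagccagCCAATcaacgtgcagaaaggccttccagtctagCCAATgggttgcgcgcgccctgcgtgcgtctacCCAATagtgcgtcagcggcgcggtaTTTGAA
Cdca3: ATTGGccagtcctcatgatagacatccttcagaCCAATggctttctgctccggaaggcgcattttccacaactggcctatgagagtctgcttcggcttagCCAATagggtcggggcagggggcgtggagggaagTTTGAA
Ube2c: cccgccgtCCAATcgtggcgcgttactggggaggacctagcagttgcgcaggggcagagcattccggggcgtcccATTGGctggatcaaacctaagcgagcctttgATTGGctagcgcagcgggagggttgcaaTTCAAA
The windows are 140 bases at chr9:70421545-70421684 (minus strand), chr6:124830072-124830211 and chr2:164769766-164769905 (plus strand), from the same RefSeq table. Both words stood in 27 of the 44 mitotic promoters found (61.4%), in 6.02% of tested genes and in 6.95% of all promoters. Each window shown holds 3 CCAAT matches and 1 TTTGAA match. Ube2c, the ubiquitin-conjugating enzyme of mitotic exit, read 4.44 and 2.91 CPM at rest and 17.3, 13.7 and 10.5 after IL-4 (log2 1.91 ± 0.38, adjusted p = 0.00729; 0.0883 without basal replicate 2).

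The identity genes of large peritoneal macrophages did not move in 1 direction. Of 36 tested, 2 were higher (5.56% against 3.26% of all genes) and 3 lower (8.33% against 2.8%). The median was -0.27, and it ran from -0.45 to 0.08 in the fits without 1 library. An unadjusted p under 0.05 was found for 20 of the 36, against 2475 of all 11614 genes tested. Gata6 read 906 and 606 CPM at rest and 524, 529 and 506 after IL-4 (log2 -0.54 ± 0.20, adjusted p = 0.13). Timd4, a receptor for phosphatidylserine on resident cells, read 236 and 281 CPM at rest and 329, 275 and 299.7 after IL-4 (adjusted p = 0.609). Tgfb2, a growth factor of the TGF-beta family, fell from 4034 and 3718 CPM to 1795, 1867 and 1973 (log2 -1.05 ± 0.18, adjusted p = 0.00286). Icam2, the gene of a marker used in the sort, fell from 833 and 1154 CPM to 347, 298 and 588 (log2 -1.27 ± 0.30, adjusted p = 0.0214). That call was lost without basal replicate 2 (adjusted p = 0.177) and without IL-4 replicates 1 (0.0902) and 2 (0.0892). Klf4, a Krueppel-like factor that is in both this list and that of alternative activation, rose from 357 and 319.6 to 734, 754 and 686 CPM (log2 1.098 ± 0.23; adjusted p = 0.00949, and 0.0869 without basal replicate 2).

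The next list held genes of small macrophages, monocytes and dendritic cells. Of 27 tested, 8 were higher (29.6% against 3.26% of all genes), 1 was lower and 18 did not pass, with a median of 0.94, and 7 to 9 were higher in the fits without 1 library. Retnla and Mgl2, given above, are members of this list too. Ccr2, the chemokine receptor that monocytes need to leave the marrow, went from 66.9 and 154 CPM to 768, 778 and 792. The treated libraries were nearly equal and the controls were not, and the log2 rise was 2.82 ± 0.31 (adjusted p = 0.000146; log2 3.54 without basal replicate 2). Cx3cr1, the fractalkine receptor, went from 6.23 and 6.17 to 25.7, 20.3 and 27.7 CPM, a rise of 3.95-fold (adjusted p = 0.000821). Folr2, a folate receptor, went from 3.97 and 9.34 to 42.8, 32.6 and 30.8 CPM (log2 2.41 ± 0.38, adjusted p = 0.002). Lyz1, 1 of the 2 mouse lysozyme genes, fell from 380.4 and 284 to 111, 87.4 and 96.05 CPM (log2 -1.76 ± 0.24, adjusted p = 0.000606). Its close copy Lyz2 went from 23600.0 and 21903 to 7046, 5912 and 6457 CPM (log2 -1.81 ± 0.37, adjusted p = 0.0123). The Lyz2 call was lost without basal replicate 1 (0.103) or 2 (0.103), and reads can be shared between the copies.

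MHC class II genes, whose products show peptides to helper T cells, were described as 1 list. The summed level of the list was 2950.7 and 3531.5 CPM at rest and 3476.7, 4653.1 and 3076.4 CPM after IL-4, so the sums of the groups overlapped. Of 14 tested, 6 were higher (42.9% against 3.26% of all genes) and none lower, with a median of 1.23, and 5 or 6 were higher in each fit without 1 library. Ciita, the master activator of these genes, went from 6.61 and 10.96 CPM to 43.5, 38.4 and 40.97, a rise of 4.65-fold (adjusted p = 0.00194). Cd74, the invariant chain that guides class II molecules, went from 75.7 and 119 to 464, 360.1 and 387 CPM, or 4.15-fold (adjusted p = 0.000606). H2-Ab1, H2-Eb1 and H2-Aa encode the class II chains. H2-Ab1 went from 68.5 and 150.1 to 469, 363 and 409.5 CPM (log2 1.92 ± 0.29; 2.59 without basal replicate 2). H2-Eb1 went from 67.3 and 122 to 381, 280.2 and 298 CPM (log2 1.75 ± 0.27), and H2-Aa from 115 and 253 to 706, 518 and 559 CPM (log2 1.69 ± 0.30; 2.37 without basal replicate 2). For each of these 5 genes all treated libraries lay above both controls, but the groups did not overlap for 703 of the 704 genes that passed.

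Markers of B cells, which also express class II, moved in the same direction. Of 22 tested B cell markers 6 were higher (27.3% against 3.26% of all genes) and none lower, with a median of 0.89. The summed level of the list was 355.6 and 544.9 CPM in the basal and 819, 889 and 774 CPM in the IL-4 libraries. Its defining genes were present throughout: Ebf1 read 16.9 and 21.1 CPM at rest and 74.9, 85.3 and 63.7 after IL-4, and Pax5 read 5.57 and 9.34 CPM at rest and 31.8, 38.3 and 30.9 after IL-4. The part of B cell RNA in the class II rise was not tested. In the knockout basal libraries the B cell sum was 2225 and 2603 CPM, above every other library.

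Markers of mast cells leaned lower. Of 11 tested, 3 were lower (27.3% against 2.8% of all genes) and none higher. The median was -2.64, or -2.13 with the member that had no reads in 1 group at its bound. Cma1, Tpsb2 and Cpa3 encode proteases of mast cell granules. Cma1 went from 7.93 and 9.42 CPM to 0.0846, 0.266 and 0.927 (log2 -4.43 ± 0.54, adjusted p = 0.000337; -5.47 without IL-4 replicate 3), and Tpsb2 from 5.29 and 5.91 to 0.761, 0.864 and 0.515 CPM (log2 -2.93 ± 0.38, adjusted p = 0.000551). Cpa3 read 5.85 and 5.74 CPM at rest and 1.52, 0.532 and 0.206 after IL-4 (log2 -2.91 ± 0.64, adjusted p = 0.0179). It passed in 1 of the 5 fits without 1 library, with a log2 difference of -3.84 without IL-4 replicate 1. The summed level was 133 and 85.2 CPM at rest and 47.6, 50.7 and 39.0 CPM after IL-4, with Mcpt1 and Mcpt2 at 0 in all 5. Of 12 neutrophil markers tested, 3 were higher and 1 lower. The sum over these markers was 504.2 and 575 CPM at rest and 371, 377 and 331 CPM after IL-4, and Ly6g was at 0. T and NK cell markers summed to 44.4 to 59.9 CPM in the 5 libraries, with 1 of 19 higher (5.26% against 3.26% of all genes). Markers of eosinophils (3 tested), mesothelium (4) and red cells (5) had no member past the threshold with edgeR or DESeq2; 0, 0 and 1 of them had an unadjusted p under 0.05. Among them Epx, Prg2, Msln and Wt1 were at 0.

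**Figure D3:**
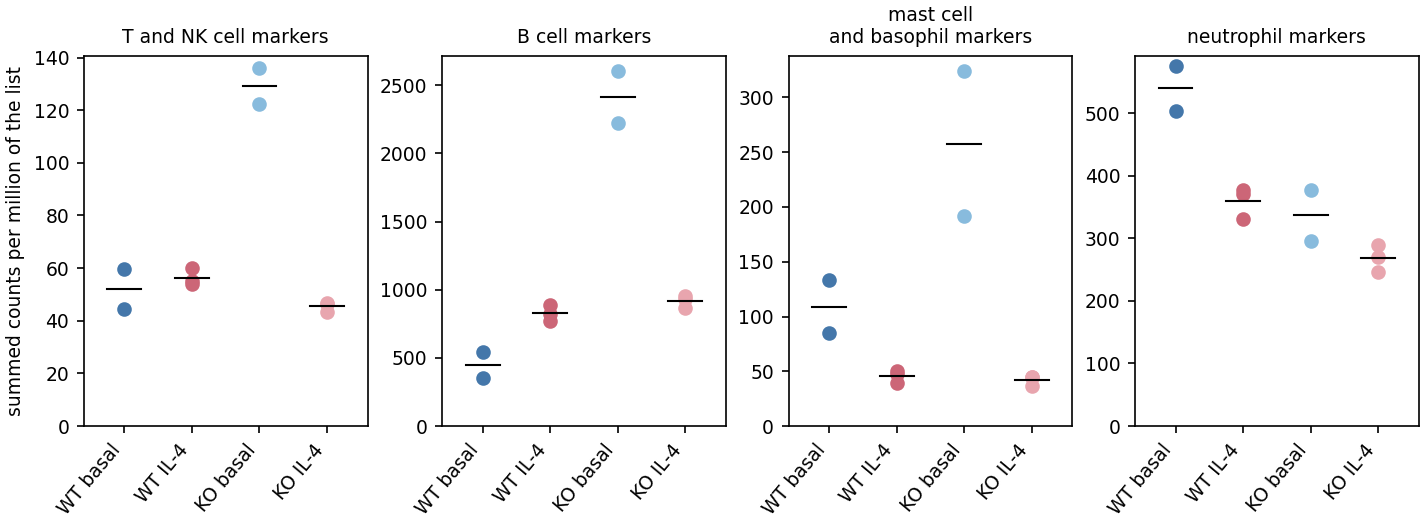
Summed CPM of 4 lists of marker genes of other cell types in each of the 10 libraries, with a line at the group mean; WT is wild type and KO is knockout, and each y axis starts at 0. In wild type the B cell sum is higher and the mast cell and neutrophil sums are lower after IL-4, while the T and NK cell sums overlap. The neutrophil sum goes against most of its members, as 9 of the 12 tested have a positive log2 difference.

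Receptors that take up ligands and dying cells moved in both directions. Among 14 scavenger receptors, 3 were higher (21.4% against 3.26% of all genes) and 1 lower (7.14% against 2.8%). Cd163, the haemoglobin receptor, went from 4.16 and 6.34 CPM to 32.7, 36.7 and 23.5, a rise of 5.89-fold (adjusted p = 0.000398). Marco, which binds bacteria and particles, read 38.1 and 89.4 CPM at rest and 202, 377 and 230.0 after IL-4 (log2 2.08 ± 0.46, adjusted p = 0.0179). Marco was lost without basal replicate 1 (0.127) or IL-4 replicate 2 (0.057), and its log2 rise was 2.82 without basal replicate 2. Colec12, a collectin with a scavenger domain, fell from 108 and 96.5 to 32.4, 27.5 and 28.8 CPM (log2 -1.79 ± 0.24, adjusted p = 0.000633). Of 30 genes for receptors and bridging proteins of dying cells, 3 were higher and 1 lower, none of them in all 5 fits without 1 library. Mertk, a receptor kinase for cells coated by the bridging protein Gas6, read 299 and 293 CPM at rest and 452, 551 and 523 after IL-4 (log2 0.78 ± 0.21, adjusted p = 0.0351). It passed in none of those fits, with adjusted p of 0.0523 to 0.167.

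Among 20 complement genes, 3 were higher and 1 lower. C3, the central component of the cascade, went from 88.4 and 72.5 CPM to 306, 261 and 279.8 (log2 1.81 ± 0.30, adjusted p = 0.00249). C5ar1, the receptor for the fragment C5a, went from 81.4 and 65.004 to 226, 182 and 179.8 CPM (log2 1.42 ± 0.24, adjusted p = 0.00267), and Cd93, a lectin-like receptor, from 425 and 340.4 to 1018, 959 and 891 CPM (log2 1.32 ± 0.20). All treated libraries lay above the controls for the 3 genes, as nearly all genes that passed had no overlap (703 of 704). C1qa, a chain of the first component, read 1493 and 1506 CPM at rest and 906, 680.5 and 757 after IL-4 (log2 -0.94 ± 0.22, adjusted p = 0.0201), and held in 1 of the 5 fits without 1 library. The Fc receptors changed unequally. Fcgr1 encodes CD64, another marker of the sort, and fell from 37.5 and 34.001 to 11.6, 8.58 and 11.1 CPM (log2 -1.78 ± 0.29, adjusted p = 0.00221). Fcgr4, which binds IgG2, rose from 15.4 and 29.5 to 97.8, 76.99 and 77.7 CPM (log2 1.903 ± 0.33, adjusted p = 0.00345). Fcgr2b, the inhibitory receptor, rose from 174 and 157 to 347, 322 and 305 CPM (log2 0.97 ± 0.20; adjusted p = 0.0106, and 0.0987 without basal replicate 2).

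Immediate early genes, which are switched on within minutes of many stimuli, included several that were higher at this late time. Of 25 tested, 8 were higher (32.0% against 3.26% of all genes), 1 was lower and 16 did not pass, with a median of 0.81. Fos went from 30.3 and 31.003 CPM to 237, 278 and 227, a rise of 8.06-fold (log2 3.01 ± 0.31, adjusted p = 8.79e-05). Jun, its partner in the factor AP-1, went from 116 and 87.96 to 414, 442 and 523 CPM (log2 2.17 ± 0.24, adjusted p = 0.000134), and Egr1 from 15.96 and 6.94 to 65.05, 69.3 and 64.5 CPM (log2 2.54 ± 0.38; 3.27 without basal replicate 1). These 3 held without any 1 library, and without 1 library 4 or 5 members were higher. Dusp6, a phosphatase of the kinase ERK, fell from 333 and 671 to 132, 128 and 135 CPM (log2 -1.93 ± 0.37, adjusted p = 0.00774). Without basal replicate 2 its log2 difference was -1.34 (adjusted p = 0.105). The AP-1 word TGANTCA, which reads the same on both strands, was in the promoters of 12.2% of the higher genes, 8.37% of the lower genes and 5.99% of all tested genes. None of the 22 immediate early genes with a promoter held it there.

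Of 32 genes for inflammatory cytokines and the feedback of NF-kB, 5 were higher (15.6% against 3.26% of all genes) and none lower. Il6 went from 1.79 and 1.46 CPM to 15.6, 21.3 and 14.3 (log2 3.39 ± 0.45, adjusted p = 0.000573). Nfkbiz, a nuclear regulator of NF-kB, went from 50.05 and 49.8 to 132, 172 and 116 CPM (log2 1.49 ± 0.24, adjusted p = 0.00228). Both held without any 1 library, whereas Il1a, Nfkbia and Tnip3 did not, and 2 members were higher without basal replicate 2 and 3 without IL-4 replicate 2. Of 19 chemokine genes, 4 were higher (21.1%) and 2 lower (10.5% against 2.8% of all genes). Cxcl12, a ligand of the receptor CXCR4, fell from 37.6 and 31.6 to 14.1, 8.04 and 12.04 CPM (log2 -1.604 ± 0.30, adjusted p = 0.00572). Cxcl2, a neutrophil attractant, read 53.7 and 104 CPM at rest and 392, 360.0 and 358 after IL-4 (log2 2.23 ± 0.50; adjusted p = 0.0221, and 0.172 and 0.0739 without basal replicates 1 and 2). Ccl3, a chemokine that attracts monocytes and T cells, read 0.472 and 1.71 CPM at rest and 7.78, 7.18 and 8.03 after IL-4 (log2 2.78 ± 0.59, adjusted p = 0.0112). Without basal replicate 1 its log2 rise was 2.17 (adjusted p = 0.0804), and without basal replicate 2 it was 3.99 (adjusted p = 0.0128).

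Genes known to respond to glucocorticoids, the steroid hormones of the adrenal gland, were a further list. Of 18 tested, 10 were higher and none lower (55.6% against 3.26% of all genes), with a median of 1.28. Fkbp5 encodes a co-chaperone of the glucocorticoid receptor. It went from 1.61 and 6.08 CPM to 61.4, 56.98 and 56.8: the treated libraries lay close together and the controls differed from each other. The log2 rise was 3.91 ± 0.49 (adjusted p = 0.000494), 3.27 without basal replicate 1 and 5.17 without basal replicate 2. Crispld2, a secreted protein, went from 2.08 and 4.37 to 39.2, 32.8 and 31.6 CPM (log2 3.41 ± 0.39, adjusted p = 0.000172; 4.05 without basal replicate 2). Per1, a clock gene, went from 5.76 and 6.59 to 28.8, 27.8 and 23.2 CPM (log2 2.103 ± 0.31, adjusted p = 0.0012), and Klf9, a Krueppel-like factor, from 292 and 271 to 846, 877 and 974 CPM (log2 1.68 ± 0.28, adjusted p = 0.0025). Cd163 is a member too. The receptor word (GNACA, any 3 bases, TGTNC), which reads the same on both strands, was in 3 of the 16 promoters found for the list and in 0.304% of tested genes. Between 6 and 9 members were higher without 1 library, the lowest count being without basal replicate 2 or IL-4 replicate 1. No sample of the series is labelled with a glucocorticoid, and hormone levels were not measured.

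Interferon-stimulated genes leaned lower. Of 42 tested, 8 were lower and none higher (19.0% against 2.8% of all genes), 32 had a negative log2 difference, and the median was -0.48. No single call among them held in all 5 fits without 1 library: 2 were lower without basal replicate 1 or 2, and 3, 3 and 1 without IL-4 replicates 1, 2 and 3. Iigp1, a GTPase that attacks parasite vacuoles, read 27.2 and 44.4 CPM at rest and 9.22, 11.9 and 5.66 after IL-4 (log2 -1.99 ± 0.38; adjusted p = 0.00651, and 0.072 without basal replicate 2). Isg15, a ubiquitin-like protein, read 7.27 and 4.45 CPM at rest and 1.27, 0.598 and 0.927 after IL-4 (log2 -2.65 ± 0.66, adjusted p = 0.0261) and passed in none of those fits, with adjusted p of 0.0528 to 0.208. Slfn5, of the schlafen family, read 211 and 191 CPM at rest and 91.3, 125 and 85.03 after IL-4 (log2 -1.003 ± 0.23, adjusted p = 0.0163) and passed in 1. The promoters of the last pair are shown for the interferon response word (GAAA, any 2 bases, GAAA), searched on both strands and in capitals here.
Isg15: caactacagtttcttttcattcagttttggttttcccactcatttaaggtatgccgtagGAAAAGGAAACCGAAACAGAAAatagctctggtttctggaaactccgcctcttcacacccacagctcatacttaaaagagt
Slfn5: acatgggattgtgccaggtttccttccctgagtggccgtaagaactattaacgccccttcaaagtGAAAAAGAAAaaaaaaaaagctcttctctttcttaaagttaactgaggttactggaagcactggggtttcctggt
They are 140 bases at chr4:156200816-156200955 (minus strand, 3 overlapping matches) and chr11:82951882-82952021 (plus strand, 1 match), from the same table. The word was in 21 of 31 promoters of the list (67.7%), in 4.01% of tested genes and in 3.44% of all promoters. Of all genes that were lower after IL-4, 3.42% held it.

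Class I MHC genes leaned the same way, with 2 of 19 lower (10.5% against 2.8% of all genes), none higher and a median of -0.44. H2-Q7 fell from 199 and 304 CPM to 34.01, 40.02 and 63.9 (log2 -2.45 ± 0.28, adjusted p = 0.000194), though its reads can be shared with near copies in the Q region. H2-T23 read 197 and 17.7 CPM at rest and 5.498, 12.9 and 10.5 after IL-4. Only basal replicate 1 stood apart for it, and without that library its log2 difference of -3.48 (adjusted p = 0.0459) became -0.87 (adjusted p = 0.575). Without basal replicate 2 it was -4.36.

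The calls among ribosomal protein genes depended on basal replicate 2. Of 79 tested, 8 were lower and none higher (10.1% against 2.8%), 67 had a negative log2 difference, and the median was -0.33. Their summed level was 62986 and 94200.0 CPM at rest and 59470.0, 45705 and 55127 CPM after IL-4, so basal replicate 1 lay near the treated libraries and basal replicate 2 far above. Without basal replicate 2 none passed with edgeR, and without basal replicate 1 there were 13. DESeq2 called 14. Rps3a1, a protein of the small subunit, read 1910.5 and 3372 CPM at rest and 1183, 843 and 992 after IL-4 (log2 -1.39 ± 0.23; adjusted p = 0.00251, and 0.0513 without basal replicate 2). Rpsa, of the same subunit, read 1097 and 1342 CPM at rest and 466, 318 and 457 after IL-4 (log2 -1.56 ± 0.29; adjusted p = 0.00651, and 0.0601 without that library).

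The nuclear genes of oxidative phosphorylation followed the same pattern. Of 61 genes of complexes I to IV, 7 were lower (11.5% against 2.8% of all genes) and none higher. The median was -0.39, and it ran from -0.50 to -0.19 in the fits without 1 library, the smallest size being without basal replicate 2. Ndufb9, a subunit of complex I, held in every such fit and fell from 242 and 282 CPM to 131, 85.2 and 116 (log2 -1.25 ± 0.23, adjusted p = 0.00558). Of 16 genes of the ATP synthase, 4 were lower, with a median of -0.52. That count was 6 without basal replicate 1 and 2 without IL-4 replicate 1, and none passed without basal replicate 2 or without IL-4 replicate 2 or 3. Atp5c1, its gamma subunit, read 86.9 and 614 CPM at rest and 92.5, 80.1 and 73.3 after IL-4, so that basal replicate 2 alone stood apart (log2 -2.095, adjusted p = 0.0472, and -0.09 without it; -2.89 without basal replicate 1). The 13 transcripts encoded by the mitochondrial genome had a median of -0.12 and none passed; 1 had an unadjusted p under 0.05 and DESeq2 called none. Short genes were lower more often than long ones across the whole table. Of the 4 equal groups of tested genes by exonic length, the shortest had 4.93% lower and 2.62% higher, and the longest had 1.17% lower and 3.90% higher. The part of gene length in the ribosomal and mitochondrial differences was not tested.

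Metabolic enzymes changed little as groups. Over all genes 3.26% were higher and 2.8% lower. Of 28 genes of glutamine use and transamination, 2 were higher (7.14%) and none lower. Among 34 genes of fatty acid oxidation, 3 were higher (8.82%) and 1 lower (2.94%). Cpt1a, which brings long-chain fatty acids into mitochondria, rose from 63.7 and 52.8 to 141, 148 and 146 CPM (log2 1.32 ± 0.25; adjusted p = 0.00651, and 0.072 without basal replicate 2). Fabp5, a fatty acid carrier, read 1644 and 1282 CPM at rest and 279, 464 and 385 after IL-4 (log2 -1.96 ± 0.46, adjusted p = 0.026) and passed in 1 of the 5 fits without 1 library. Of 30 genes of glycolysis and the pentose phosphate pathway 1 was higher and 1 lower (3.33% each way). Of 32 genes of cholesterol and fatty acid synthesis 1 was lower (3.1%) and none higher. In that list 28 had a negative log2 difference, and the median was -0.36. Gpx3, a secreted glutathione peroxidase, rose from 3.87 and 4.37 to 34.2, 25.2 and 29.03 CPM, or 7.13-fold (adjusted p = 0.000371). In its list of 38 genes of glutathione and thioredoxin 3 were higher (7.89%) and 2 lower (5.26%). Of 49 lysosomal genes, 2 were higher and 2 lower (4.08% each way), near the shares over all genes.

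Apoe, the lipid carrier apolipoprotein E, showed the largest loss of reads. It fell from 13666 and 37405 CPM to 3909.9, 2923 and 3374, a decrease of 7.51-fold (log2 -2.91 ± 0.31, adjusted p = 0.000152). The basal libraries differed from each other, and without basal replicate 2 the log2 difference was -2.01. Cst3, the protease inhibitor cystatin C, fell from 4533 and 3991 to 1586, 1495 and 1570.2 CPM (log2 -1.46 ± 0.22, adjusted p = 0.0012). By fold, Slc4a4, a bicarbonate transporter, read 29.7 and 9.16 CPM at rest and 1.44, 0.465 and 1.34 after IL-4. Its log2 difference of -4.19 ± 0.62 (adjusted p = 0.0012) was -3.08 without basal replicate 1 and -4.80 without basal replicate 2. Il11ra1, the receptor for interleukin-11, fell from 44.95 and 65.2 to 6.94, 5.25 and 5.76 CPM, a decrease of 9.198-fold (log2 -3.201 ± 0.31, adjusted p = 3.86e-05). Btc, an EGF-like growth factor, fell from 10.7 and 10.8 to 1.27, 1.596 and 1.65 CPM (log2 -2.83 ± 0.40), and Cav1, the coat protein of caveolae, from 45.7 and 62.9 to 9.98, 6.18 and 7.62 CPM (log2 -2.78 ± 0.45). Dgkg, a diacylglycerol kinase, fell from 103 and 69.4 to 14.3, 19.4 and 19.9 CPM (log2 -2.27 ± 0.29). Eif3j2, an intron-poor copy of an initiation factor gene, read 43.2 and 35.97 CPM at rest and 4.82, 5.58 and 5.04 after IL-4 (log2 -2.94 ± 0.32), and its reads may be shared with its parent gene.

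Of 22 matrix genes, 3 were higher and 3 lower (13.6% each way, against 3.26% and 2.8% of all genes). Mmp8, a collagenase that is also a neutrophil marker, rose from 0.8499 and 0.343 to 17.4, 13.4 and 11.6 CPM (log2 4.56 ± 0.62, adjusted p = 0.000636; 5.34 without basal replicate 1). S100a8, a calcium-binding protein abundant in neutrophils, rose from 5.67 and 8.22 to 24.2, 19.6 and 23.7 CPM (log2 1.69 ± 0.35; adjusted p = 0.00951, and 0.0878 without basal replicate 1), while Ly6g was at 0. Vcan, a large proteoglycan of monocytes, rose from 6.04 and 4.796 to 20.9, 31.4 and 28.9 CPM (log2 2.32 ± 0.32, adjusted p = 0.000746), and Adam8, a surface protease, from 23.99 and 13.7 to 87.5, 57.98 and 60.3 CPM (log2 1.87 ± 0.32, adjusted p = 0.00312). Maf, a transcription factor of resident macrophages, rose from 233 and 292 to 850.4, 758 and 845 CPM, or 3.12-fold (adjusted p = 0.00101).

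Among the genes with at least 10 CPM in the higher group, several with little known role in macrophages were among the 25 largest rises. Tcf23, a helix-loop-helix factor, went from 6.89 and 4.97 CPM to 37.8, 57.7 and 50.9 (log2 3.04 ± 0.43, adjusted p = 0.000821). Nipal1, a magnesium transporter, went from 2.64 and 3.51 to 20.1, 23.004 and 18.02 CPM (log2 2.72 ± 0.34, adjusted p = 0.000398), and Hhipl1 from 1.32 and 1.88 to 12.3, 16.4 and 13.5 CPM (log2 3.12 ± 0.51, adjusted p = 0.00237). Each treated library exceeded both controls by several fold, but a gene was named as a largest rise only if the groups did not overlap. Clec4a2, a C-type lectin receptor of myeloid cells, rose from 4.53 and 8.56 to 49.8, 37.2 and 41.6 CPM (log2 2.704 ± 0.36, adjusted p = 0.000606).

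Among the 15 largest differences of CPM in each direction were Vim and Cald1, which were higher, and Tmsb4x, which was lower. Vim, the intermediate filament vimentin, read 473 and 455 CPM at rest and 3162, 1161 and 909 after IL-4, with IL-4 replicate 1 far above the other treated libraries. Its log2 rise of 1.91 ± 0.43 (adjusted p = 0.0203) was 1.16 without that library (adjusted p = 0.0168), and it did not pass without basal replicate 1 (0.158) or 2 (0.197). Cald1, an actin-binding protein, read 696 and 1244 CPM at rest and 1727, 2070.3 and 2636 after IL-4 (log2 1.14 ± 0.27, adjusted p = 0.0186) and passed in 2 of the 5 fits without 1 library. Tmsb4x, which encodes the actin-binding peptide thymosin beta 4, read 6539 and 7362 CPM at rest and 4668, 4353 and 4466 after IL-4 (log2 -0.63 ± 0.18, adjusted p = 0.0495) and passed in none of those fits (adjusted p 0.0943 to 0.23). Fam120a, an RNA-binding scaffold, rose from 439 and 453 to 1388, 951 and 1058 CPM (log2 1.34 ± 0.21, adjusted p = 0.00203). Slpi, a secreted inhibitor of neutrophil elastase, fell from 2723 and 2919 to 1615, 1184 and 1484 CPM (log2 -0.98 ± 0.20; adjusted p = 0.00813, and 0.0551 without basal replicate 2).

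**Figure D4:**
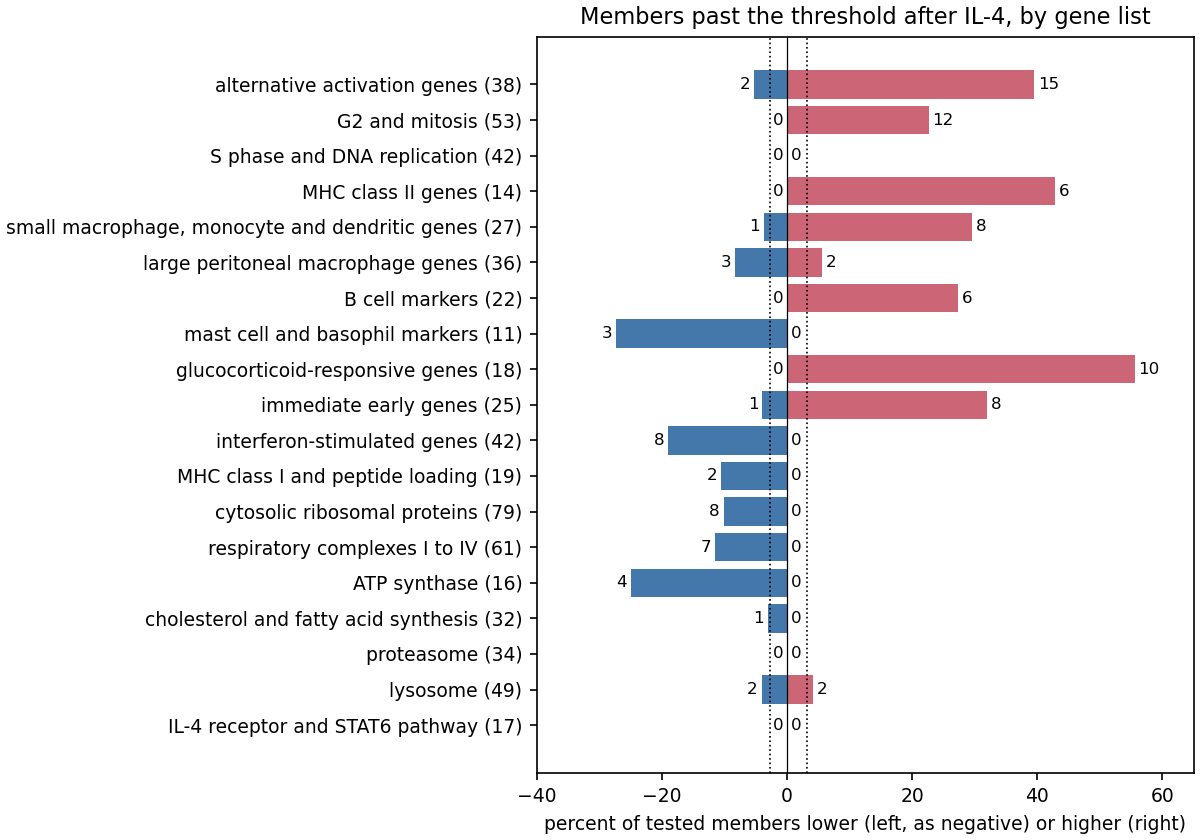
Percent of the tested members of 19 gene lists that were higher (red, to the right) or lower (blue, to the left, as negative values) after IL-4 at an adjusted p under 0.05; the number of members tested is in brackets and the number past the threshold stands at each bar. Dotted lines mark the shares over all genes, 3.26% higher and 2.8% lower.

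The wild-type response was set against that of the knockout cells by the difference between the 2 IL-4 effects in the same fit. In the knockout, 883 genes passed (7.6%). The difference itself passed for 326 of the 11614 genes (2.81%), 119 of them positive and 207 negative, and for 128 of the 704 genes of the wild-type response. Without knockout basal replicate 1 the count was 182, and without wild-type IL-4 replicate 1 it was 212. The positive share of 36.5% was 25.1% with library totals and 59.5% without a filter on low counts. Of the 86 rises among these 128 the effect was smaller or opposite in the knockout for 80, and of the 42 falls for 39. These genes were chosen by their wild-type effect, which enters the difference with a minus sign. That choice alone favours an opposite sign, so these counts cannot show a weaker response in the knockout. Chil3 rose in both genotypes. It went from 1.41 and 1.34 to 501, 397 and 308 CPM in the knockout, a log2 rise of 8.18 beside 10.204 in wild type, and the difference was -2.02 ± 0.43 (adjusted p = 0.0171). That call was lost when any 1 of 3 controls was left out: the knockout basal replicates 1 (0.0795) and 2 (0.0783), and basal replicate 2 of wild type (0.0634). Clec10a differed more firmly: it went from 23.04 and 21.9 to 43.6, 57.5 and 34.9 CPM in the knockout, with a difference of -2.31 ± 0.36 (adjusted p = 0.00227). For Arg1 the log2 rise in the knockout was 4.98, and the difference of -1.53 ± 0.41 did not pass (adjusted p = 0.0611); for Retnla it was 4.702, with a difference of 1.102 ± 0.31 (adjusted p = 0.0699).

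Over all genes tested the difference between the genotypes passed for 2.81%, and several lists had a larger share. For the glucocorticoid-responsive genes the median log2 difference after IL-4 was 1.28 in wild type and -0.11 in the knockout. The genotype difference passed for 7 of 18 members of this list. The controls already differed: the summed level of the list was 1239.7 and 1049.5 CPM in wild-type basal and 1758.2 and 2118.1 CPM in knockout basal libraries. The part of these starting levels in the difference was not tested. Fkbp5 went from 19.5 and 41.95 to 12.2, 9.37 and 10.1 CPM in the knockout, a log2 difference of -1.55 (adjusted p = 0.0301), and the gap to wild type was -5.46 ± 0.62 (adjusted p = 0.000593). The gene thus rose in wild type while every treated knockout library lay below both of its controls. Crispld2 went from 3.89 and 4.83 to 3.05, 2.304 and 1.68 CPM there (difference -4.32 ± 0.53, adjusted p = 0.000593). For G2 phase and mitosis the median was 2.78 in the knockout against 1.24 in wild type, and the difference passed for 10 of 53 genes. MHC class II had a median of -0.24 in the knockout against 1.23, and 7 of 14 passed. Cd74 went from 350.0 and 545 to 286, 339 and 404 CPM in the knockout (difference -2.44 ± 0.37, adjusted p = 0.00197). For 17 of 22 B cell markers the difference passed as well. Ebf1 went from 192 and 242 to 67.4, 75.4 and 50.6 CPM in the knockout (difference -3.73 ± 0.36, adjusted p = 7.19e-05), and Pax5 from 94.5 and 175 to 54.3, 31.5 and 44.3 CPM (difference -3.81 ± 0.47, adjusted p = 0.000593). B cell markers stood high in the knockout basal libraries, and the part of this level in the class II difference was not tested. Dnajb12, a chaperone of the endoplasmic reticulum, fell in wild type from 76.7 and 63.9 to 17.6, 11.2 and 13.2 CPM and read 8.003 and 10.6 and 16.96, 10.98 and 12.8 CPM in the knockout (difference 2.87 ± 0.42, adjusted p = 0.0016).

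**Figure D5:**
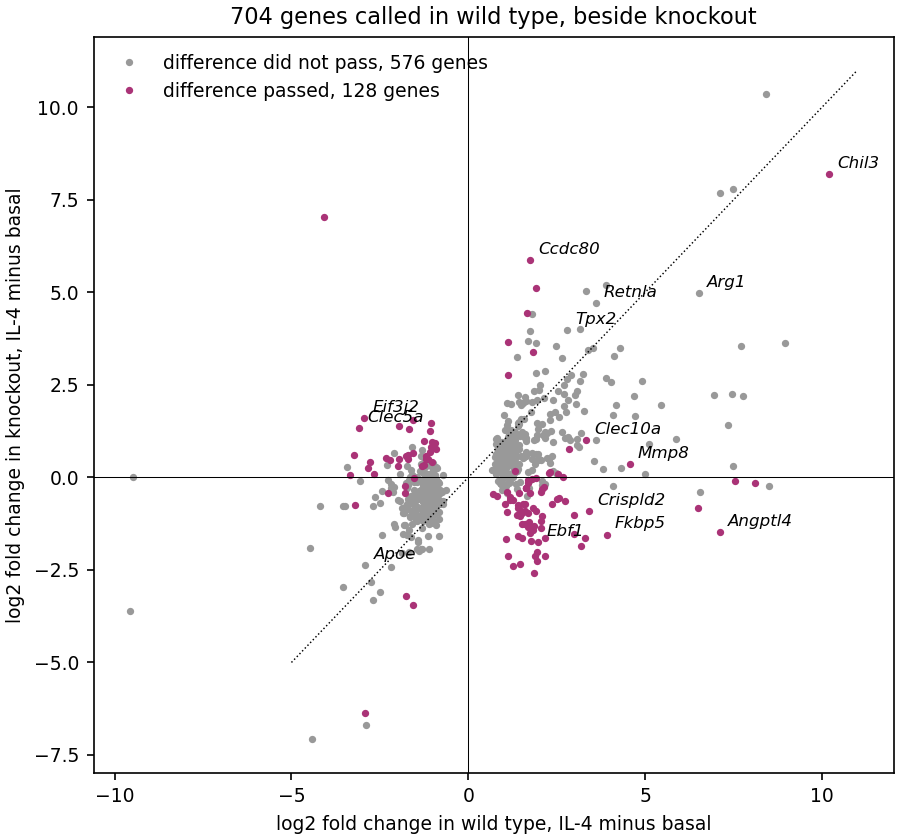
The 704 genes that passed in wild type, by their log2 difference after IL-4 in wild type (x axis) and in knockout (y axis); the dotted line marks equal effects. Purple points are the 128 genes for which the difference between the genotypes passed and grey points are the rest; Fkbp5 and Crispld2 are positive in wild type and negative in knockout.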

How the data were processed

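Polyadenylated RNA of 10 sorted macrophage samples was sequenced. The deposited values are raw counts of reads per gene for each library, in 1 table of the series. Per the submitters' processing notes the authors used STAR, HTSeq and the mm10 build, and versions and strand setting are not given in the sources used here. Of 22165 identifiers, 420 had no symbol in GENCODE M21 and 7409 were 0 throughout. Totals were 8762403 to 15024073 reads, so that a gene near 1 CPM rests on about 10 reads in a library.

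Genes were kept by filterByExpr of edgeR 4.0.16 (minimum count 10, minimum total 15; R 4.3.3), scaled by TMM and fitted with 1 mean per group over all 10 libraries, which share the estimate of spread (robust quasi-likelihood test, common biological coefficient of variation 28.4%). The contrasts were IL-4 against basal in wild type, and its difference from the knockout. P-values were adjusted by Benjamini-Hochberg over all 11614 genes, and the threshold was 0.05. Errors after ± approximate the standard error of the log2 difference. They were computed as its absolute size divided by the square root of the F statistic of the test. Alternatives were DESeq2 1.42.0, RLE scaling, library totals, other filters, wild-type libraries alone, no robust step, a replicate block and leaving out each library.

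The members and the 46 gene lists were chosen with earlier results of these data known. The genes named were Lyz2, the 25 largest rises and falls with at least 10 CPM and no overlap, the 15 largest CPM differences each way, up to 5 passing members of a list by p (or 2 where none passed), and up to 10 genes of the genotype difference. Adgre1, Csf1r, Folr2, Gata6, Il4ra, Rnase2a, Timd4 and the mitotic genes named without values fall outside that rule and were chosen after their values were seen. Promoters came from RefSeq (GRCm38.p6) by gene symbol and were scanned with Python 3.11.15; no genome sequence or protein was used. The levels of the targeted gene are not reported here.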

Additional observations from a re-analysis of the deposited data

Results flagged for a closer look

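The IL-4 effect differed between the genotypes, by the test of the difference itself, for 34 of the genes named above; each value is the log2 response of knockout cells less that of wild-type cells. Among genes that were higher in wild type it was negative for Chil3 (-2.02), Clec10a (-2.31), Fkbp5 (-5.46), Crispld2 (-4.32), Klf9 (-1.74), Mmp8 (-4.21), S100a8 (-2.64), Gpx3 (-2.06), C5ar1 (-1.85), Cd93 (-1.16), Slc7a1 (-1.75) and Srm (-1.86). The class II genes gave -2.44 for Cd74, -1.85 for H2-Aa, -1.94 for H2-Ab1 and -2.16 for H2-Eb1, and the B cell genes -3.73 for Ebf1 and -3.81 for Pax5. The mitotic genes named gave positive values, 1.57 for Cenpe, 3.22 for Hmmr and 2.79 for Mki67. The call of Cenpe passed in 1 of 10 fits without 1 library, and was lost with library totals (adjusted p = 0.0736), the stricter filter (0.0520), no robust step (0.0527) and the replicate block (0.0911). Colec12 was lost with library totals (0.0918) and the block (0.0682), and Dgkg with the block (0.0528).

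Among genes that were lower in wild type the difference was positive for Btc (3.08), Cav1 (3.21), Ccl24 (1.76), Clec5a (4.41), Colec12 (1.37), Dgkg (1.83), Dnajb12 (2.87), Eif3j2 (4.53), Fabp5 (3.35), Iigp1 (2.31) and Il11ra1 (2.47). It was negative for Lyz1 (-1.45) and Tpsb2 (-3.44), which fell further in the knockout. Of 32 of these genes refitted without 1 library (all but Hmmr and Mki67), 16 passed in all 10 such fits. The calls lost were 10 and 12 without knockout basal replicates 1 and 2, 5 and 12 without wild-type basal replicates 1 and 2, 9, 3 and 7 without wild-type IL-4 replicates 1, 2 and 3, and 2, 1 and 3 without knockout IL-4 replicates 1, 2 and 3. The knockout basal libraries differed from the wild-type basal ones for part of these genes before any IL-4. The values of Ebf1, Cd74, Dnajb12 and Fkbp5 above show this, and the part of that difference was not tested.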

How the results depend on the processing

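The groups held 2 and 3 libraries, and in wild type the controls differed from each other more than the treated libraries did. The 379 higher genes became 641 with DESeq2, and the 325 lower genes became 646 without a filter on low counts and 207 with the replicate number as a block. The 326 genes that differed between genotypes became 594 with DESeq2 and 819 without a filter. Leaving out 1 library gave 169 to 230 higher genes, 113 to 244 lower genes and 182 to 397 genes that differed between genotypes. No named gene that passed changed the sign of its difference under the alternatives run. The balance of the calls did turn: 563 genes were higher and 646 lower without a filter, 169 higher and 244 lower without basal replicate 1, and the genotype difference was positive for 487 and negative for 332 genes without a filter. Of 174 named genes that passed, 73 passed in all 5 fits without 1 wild-type library and 143 under all 8 other alternatives. Library totals in place of TMM moved the median log2 difference of all genes by 0.07, and that of the genotype difference to -0.17. Genes near 1 CPM rest on few reads, so changes there were detectable only when large.

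Whether the replicate number pairs the libraries could not be settled. Deviations of same-numbered libraries from their group means correlated at 0.062 for number 1 and 0.043 for number 2, below 0.1. With 2 basal libraries the deviations of 1 mirror those of the other, so these values cannot exclude a pairing. With the replicate block 267 genes were higher and 207 lower, and 445 of the 704 calls remained. The genotype difference passed for 282 genes under the block.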
